A study of Homo sapiens with 8 samples.

Results

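The G9a-GLP methyltransferase complex and the proteins that bind it were followed at the RNA level after G9a was silenced in Rh41 cells. Rh41 is an established human line of alveolar rhabdomyosarcoma, a childhood tumour with features of skeletal muscle, and carries the PAX3-FOXO1 gene fusion. The 6 genes were taken by symbol from a deposited table of 60234 gene rows: EHMT2 (G9a), EHMT1 (GLP), WIZ, ZNF644, CDYL and MPHOSPH8. They were chosen for what their products do and not for their values, although earlier results of these libraries were known. EHMT2 stands on 7 identifiers, and the row with the highest mean was used. The other 6 EHMT2 rows were at 0 in every library.

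The submitters describe 4 control and 4 siG9a libraries of 3′ end reads as biological replicates; what each came from is not stated further, so the spread may be partly technical. All 8 came from the same fusion-positive line, so the groups differ in the labels only by the knockdown. The sequence and dose of the siRNA, the nature of the control and the time of harvest are not given in the sources used here. Libraries held 1458825 to 1938665 reads in genes, values are in CPM (reads as a share of all reads in genes, the usual counts-per-million scale), and 1 read was worth 0.516 to 0.685 CPM. QuantSeq reads come from near the 3′ end of a transcript, so counts should not grow with its length and CPM was not divided by length. Differences in capture between genes were not tested.

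G9a and GLP are sister enzymes with a catalytic SET domain and ankyrin repeats, which place and bind mono- and dimethyl marks on H3K9, a modification of silent euchromatic genes. They work as a heterodimer, and loss of either protein is known to weaken the other. The zinc finger proteins WIZ and ZNF644 bind the dimer and bring it to chromatin. CDYL and MPHOSPH8 are chromodomain proteins that bind methylated H3K9: CDYL is a corepressor that joins G9a to the REST repressor, and MPHOSPH8 is a subunit of the HUSH silencing complex and binds GLP. In muscle precursors G9a is known to restrain differentiation, partly through MYOD1.

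The replicate number and replicate 3 bear on every value below. Across 15092 genes, the deviations of a control and a siG9a library of equal number from their groups had correlations of 0.50, 0.10, 0.67 and 0.13 for replicates 1 to 4. Each exceeded the 0.1 set for pairing, replicate 2 only narrowly at 0.104. The differently numbered control replicate 2 and siG9a replicate 4 correlated at 0.144, above the equal-numbered values of replicates 2 and 4. For that reason 2 limma fits of log2(CPM + 1) are given, the unpaired fit with group alone and the paired fit with the replicate number as a block. Both replicate 3 libraries stood apart from the rest. The summed CPM of 12 muscle and rhabdomyosarcoma markers (all at a mean of 1 CPM or more) was 402 in control replicate 3 and 372 in siG9a replicate 3, against 1196 to 2496 in the other 6 libraries. The summed CPM of 8 neural markers, mostly the neurofilament genes NEFM and NEFL, was 10140 and 9187 in those replicate 3 libraries, 277 and 300 in the replicate 1 libraries and 2021 to 3083 in replicates 2 and 4. UCHL1 was also highest in replicate 3 of each group, at 524.5 CPM in control (others 89.8 to 278.3) and 251.8 CPM in siG9a (others 77.4 to 201.3). NEFH, INA, STMN2, TUBB3 and GAP43 were at 0 to 8.61 CPM in all 8 libraries. Fibroblast markers summed to 63.4 to 472 CPM with POSTN at 0, epithelial markers to 10.3 to 76.2 CPM and blood markers to 1.83 to 6.85 CPM. The siG9a libraries also held a larger mitochondrial share of reads in 4 of 4 pairs (5.21 to 13.7%, against 4.59 to 9.18% in control; exact permutation p = 0.2). The part of these shifts in the results was not tested, and values without replicate 3 are given where a call or direction of a named gene differs.

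Of the 6 genes, EHMT2 alone passed the test, and only in the paired fit. At an adjusted p under 0.05 the unpaired fit called 0 of the 6, where it called 0 of all 15092 genes tested (0%), with 1 of the 6 and 1880 of all genes at an unadjusted p under 0.05. The paired fit called 1 of the 6 genes, against 11.4% of all genes. It called EHMT2 lower, where 6.52% of genes were called lower and 4.86% higher. The deviations of EHMT2 itself from its group means had the same sign in only 2 of 4 pairs. The median log2 change of the 6 genes was −0.04, and that of all genes tested was 0.01.

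**Figure D1:**
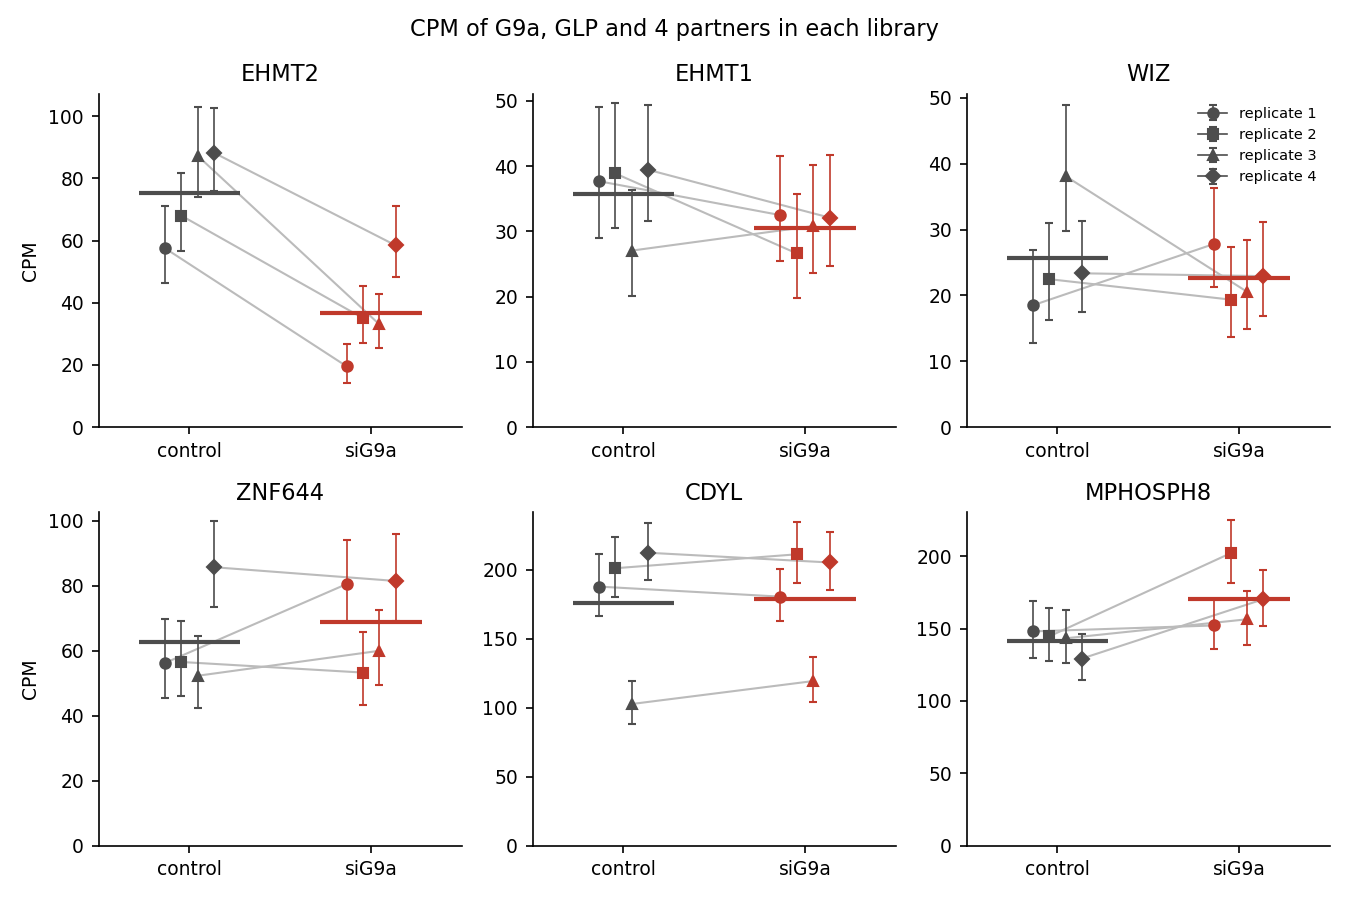
CPM (vertical axis, from 0) of the 6 genes in control (grey) and siG9a (red) libraries. Each symbol is 1 library with its 95% Wilson interval for counting error, thin lines join libraries with the same replicate number, and thick bars are group means (n = 4 each). EHMT2 is lower in siG9a in 4 of 4 pairs, CDYL is low in both replicate 3 libraries, and MPHOSPH8 in siG9a lies above all 4 control values.

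EHMT2, which encodes the silenced enzyme and lies on chromosome 6, measured 57.6, 68.1, 87.3 and 88.3 CPM in control replicates 1 to 4 (84 to 170 reads). In siG9a replicates 1 to 4 it measured 19.6, 35.1, 33.1 and 58.5 CPM (38 to 102 reads). The siG9a library of replicate 4 reached the level of control replicate 1, so the groups overlapped by this pair of libraries. Every siG9a library was below the control of the same number, which 15.3% of all genes tested also showed. EHMT2 in siG9a was at 34.0%, 51.6%, 37.9% and 66.3% of the control of the same number. In this spread the depth of the knockdown and other differences between libraries cannot be told apart. Mean EHMT2 was thus 75.3 ± 15.1 CPM without and 36.6 ± 16.2 CPM with the knockdown (SD, n = 4), 48.6% of control. The log2 change was −1.10, with a 95% interval from −1.77 to −0.43 in the unpaired fit (limma adjusted p = 0.191) and from −1.50 to −0.70 in the paired fit (limma adjusted p = 0.000472). Without replicate 3 the change was −1.01 (paired limma adjusted p = 0.00867). An exact permutation test of the EHMT2 CPM values, which takes no account of the pairs, did not pass (two-sided p = 0.0571).

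Genes annotated over the 6 loci were checked for reads counted to them. EHMT2-AS1 is an antisense gene with an exon within 500 bases of the 3′ end of EHMT2 in GENCODE release 29. It was at 0 in all 8 libraries, where the floor (3 reads) was 1.55 to 2.06 CPM. Whether reads were counted by strand, and how reads shared by overlapping genes were handled, is not stated. A value of 0 therefore sets no limit on shared reads, and antisense reads cannot be told apart from EHMT2 reads. For the other 5 genes, each gene of that release that overlaps them and is in the table was also at 0 in every library. The same limit holds there.

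EHMT1 encodes GLP, the partner enzyme, and lies on chromosome 9. It measured 37.7, 38.9, 27.1 and 39.5 CPM in control replicates 1 to 4 and 32.5, 26.6, 30.8 and 32.1 CPM in siG9a. Control replicate 3 was low, below 3 of the 4 siG9a values, and the other 3 control libraries were above all 4 siG9a libraries. The means of 35.8 ± 5.86 and 30.5 ± 2.69 CPM (SD, n = 4) gave a log2 change of −0.21 with a 95% interval from −0.64 to 0.22 in the paired fit (limma adjusted p = 0.574). In the unpaired fit the interval ran from −0.71 to 0.29 (limma adjusted p = 0.764). Without replicate 3 the means were 38.7 ± 0.898 and 30.4 ± 3.28 CPM (SD, n = 3) and the change was −0.34 (paired limma adjusted p = 0.442).

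**Figure D2:**
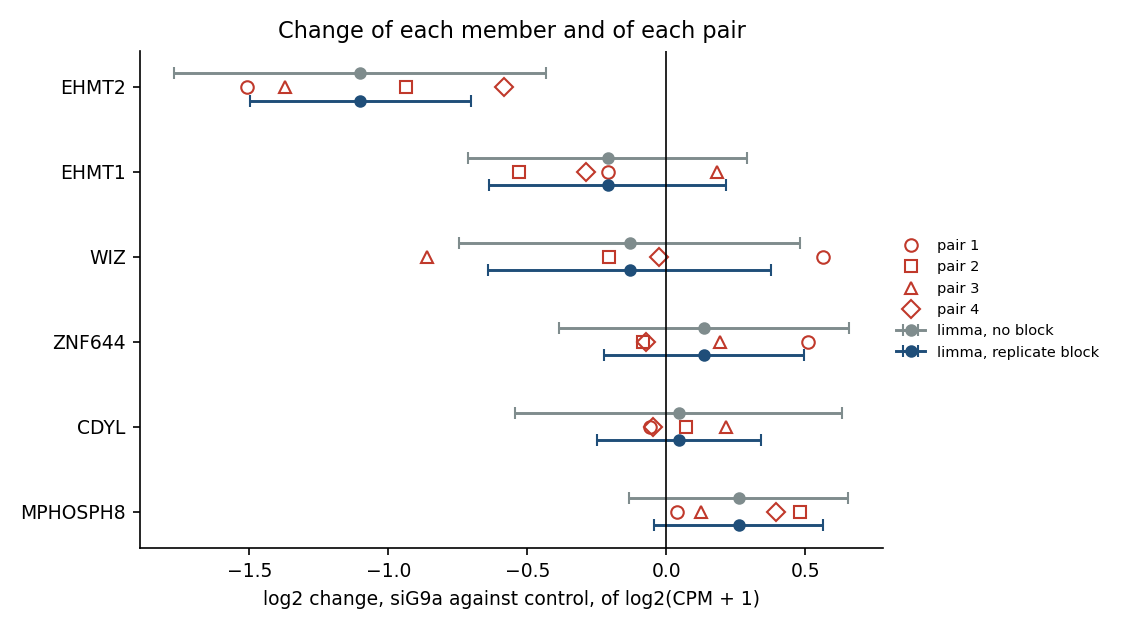
Log2 change of siG9a against control on the log2(CPM + 1) scale for the 6 genes. Filled points with bars are the limma estimate and its 95% interval without (grey) and with (blue) the replicate block, and open red symbols are the 4 pairs. The interval of EHMT2 lies below 0 in both fits, and those of the other 5 genes include 0.

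The balance between the RNA of the sister enzymes was taken from the reads of both genes, which does not depend on how a library is scaled. It does not give the balance of the proteins. EHMT2 took 60.4%, 63.6%, 76.3% and 69.1% of the reads of both genes in control replicates 1 to 4. In siG9a it took 37.6%, 56.9%, 51.8% and 64.6%. In siG9a replicate 1 the 95% Wilson interval of this share (28.8 to 47.4%) lay wholly below an even split, and EHMT1 reads outnumbered EHMT2 reads. In siG9a replicate 4 the interval (56.8 to 71.6%) lay within the range of the control intervals. The mean share was 67.4 ± 6.97% in control and 52.7 ± 11.3% in siG9a (SD, n = 4). It was lower in 4 of 4 pairs, but the difference did not pass an exact permutation test of the 8 libraries (two-sided p = 0.0857, where the smallest possible is 0.0286).

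**Figure D3:**
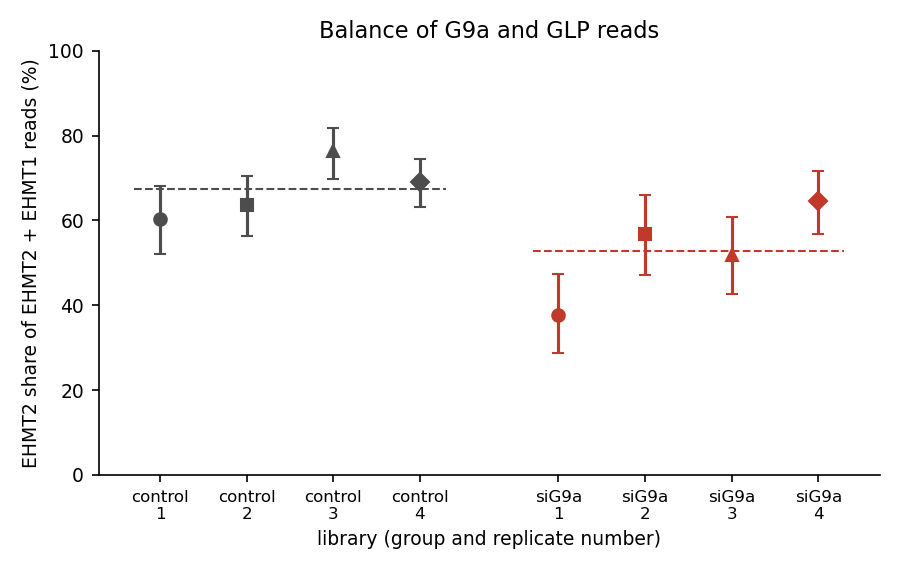
EHMT2 reads as a percentage of EHMT2 plus EHMT1 reads in each library (axis from 0 to 100%), with 95% Wilson intervals and dashed group means of 67.4% and 52.7%. Each siG9a library is below the control library of the same number, and siG9a replicate 4 is within the control range.

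WIZ, a multi-zinc-finger subunit of the complex (chromosome 19), was the lowest of the 6. It measured 18.5, 22.5, 38.1 and 23.4 CPM in control replicates 1 to 4 and 27.9, 19.4, 20.6 and 22.9 CPM in siG9a, from 27 to 62 reads. Control replicate 3 was the highest library, siG9a replicate 1 the next, and the groups overlapped. The means were 25.6 ± 8.60 and 22.7 ± 3.75 CPM (SD, n = 4), with a log2 change of −0.13 (95% interval −0.64 to 0.38, paired limma adjusted p = 0.795). Without replicate 3 the estimate turned to 0.11, so no direction can be given for WIZ.

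ZNF644, a zinc finger partner that works beside WIZ (chromosome 1), measured 56.2, 56.5, 52.3 and 85.7 CPM in control replicates 1 to 4. In siG9a it measured 80.5, 53.3, 60.0 and 81.4 CPM. Both replicate 4 libraries and siG9a replicate 1 were high, and the remaining 5 lay between 52.3 and 60.0 CPM, so the high libraries did not follow the groups. The means were 62.7 ± 15.5 and 68.8 ± 14.3 CPM (SD, n = 4), with a log2 change of 0.14 (95% interval −0.22 to 0.50, paired limma adjusted p = 0.684).

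CDYL, the chromodomain corepressor, is the second of the 6 genes on chromosome 6. It measured 187.8, 201.1, 102.7 and 212.4 CPM in control replicates 1 to 4 and 180.5, 211.2, 119.3 and 205.3 CPM in siG9a. The replicate 3 libraries of both groups were the lowest, and the other 6 lay between 180.5 and 212.4 CPM. Thus CDYL separated replicate 3 from the rest and not siG9a from control. The means were 176.0 ± 49.9 and 179.1 ± 42.0 CPM (SD, n = 4). The log2 change was 0.04, with a 95% interval of −0.25 to 0.34 in the paired fit (limma adjusted p = 0.886) and of −0.54 to 0.63 in the unpaired fit. Without replicate 3 the means were 200.4 ± 12.3 and 199.0 ± 16.3 CPM (SD, n = 3), and the estimate was −0.01 with a paired interval of −0.38 to 0.36.

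MPHOSPH8, the HUSH subunit that reads methylated H3K9 (chromosome 13), was the one gene of the 6 whose groups did not overlap. It measured 148.1, 144.6, 143.3 and 129.3 CPM in control replicates 1 to 4, and 152.2, 202.2, 156.4 and 170.3 CPM in siG9a. All 4 siG9a values were above all 4 control values, a pattern that 3.88% of all genes tested showed, and siG9a was higher in 4 of 4 pairs, as for 14.9% of genes. The siG9a value was 102.8% of its control in pair 1 and 139.8% in pair 2, the smallest and largest of the 4. The means were 141.3 ± 8.26 and 170.3 ± 22.6 CPM (SD, n = 4), 120.5% of control. The log2 change was 0.26 and did not pass across all genes (95% interval −0.05 to 0.57, limma adjusted p = 0.283 paired; −0.13 to 0.65, limma adjusted p = 0.603 unpaired). An exact permutation test of its 8 values gave a two-sided p of 0.0286, the smallest that 4 against 4 libraries allow. MPHOSPH8 was 1 of 6 genes examined in this way. The same test gave 0.0571 for EHMT2, 0.114 for EHMT1 and 0.686 or more for WIZ, ZNF644 and CDYL.

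Whether EHMT2 changed by more than its partners was tested as the difference between 2 genes of the same library. The log2(CPM + 1) of EHMT2 minus that of the partner differed between siG9a and control by −1.24 for ZNF644, −1.15 for CDYL and −1.36 for MPHOSPH8. In these 3 comparisons the groups did not overlap (exact two-sided permutation p = 0.0286, the smallest possible, and 0.0476 adjusted over the 5 comparisons). Each of the 3 lost its call when any 1 control library, siG9a replicate 1 or siG9a replicate 2 was left out. Against EHMT1 and WIZ the differences were −0.89 and −0.97, which did not pass (exact permutation p = 0.0857 and 0.0571, adjusted 0.0857 and 0.0714). All 5 differences were lower in siG9a in 4 of 4 pairs, for which an exact sign-flip test cannot go below 0.125. An excess of the EHMT2 change over that of GLP was thus not established.

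The order of the levels shifted at one place. By mean CPM in control the order was CDYL, MPHOSPH8, EHMT2, ZNF644, EHMT1 and WIZ. Library ranges of CDYL and MPHOSPH8 overlapped, as did those of EHMT2 and ZNF644 and those of EHMT1 and WIZ, while the 3 pairs of genes were clear of each other. In siG9a, EHMT2 stood behind ZNF644, and its range of 19.6 to 58.5 CPM overlapped those of ZNF644, EHMT1 and WIZ. The summed CPM of all 6 genes was 516.7 ± 53.2 in control and 507.9 ± 66.9 in siG9a (SD, n = 4; exact permutation p = 0.857). Without EHMT2 the sum was 441.4 ± 54.8 and 471.4 ± 59.1 CPM (exact permutation p = 0.457), higher in siG9a in 4 of 4 pairs. In bulk RNA, fewer cells that express a gene and less RNA per cell cannot be told apart.

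Pairs among the 6 genes differed in how they varied over the 8 libraries. Correlations of log2(CPM + 1), which share library depth and the replicate 3 shift, ran from −0.65 (EHMT1 and MPHOSPH8) to 0.50 (EHMT1 and CDYL). EHMT2 had r = 0.31 with EHMT1, 0.21 with WIZ and −0.49 with MPHOSPH8. After the group means were subtracted, EHMT2 had r = −0.20 with EHMT1, 0.07 with WIZ and 0.20 with MPHOSPH8. The negative correlation of EHMT2 with MPHOSPH8 was thus not seen within the groups. Correlations within groups ran from −0.67 (ZNF644 and MPHOSPH8) to 0.63 (EHMT1 and ZNF644).

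The genes most like EHMT2 were those with the highest correlation of log2(CPM + 1) over the 8 libraries among genes at a mean of 10 CPM or more. They were NIPBL (r = 0.974), ZNF37A (0.971), DIS3L (0.971), FAM63B (0.969) and FAM208A (0.967). NIPBL loads cohesin onto chromatin, DIS3L is an exosome nuclease, FAM63B is a deubiquitinase and FAM208A, now named TASOR, is the scaffold of the HUSH complex to which MPHOSPH8 belongs. ZNF37A measured 118.6, 197.5, 242.9 and 240.9 CPM in control replicates 1 to 4 and 41.3, 93.8, 102.2 and 139.4 CPM in siG9a. As with EHMT2, replicate 1 was the lowest library of each group and siG9a replicate 4 was above control replicate 1. In the paired fit ZNF37A (log2 change −1.15, limma adjusted p = 2.84e-05), FAM63B (−0.81, 0.00169) and NIPBL (−0.61, 0.00661) fell, NIPBL without passing when pair 1 or pair 2 was left out (0.0595 and 0.0734), while DIS3L (−0.63, 0.0665) and FAM208A (−0.55, 0.0994) did not pass. The likeness was itself chosen on these libraries and is a description only.

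**Figure D4:**
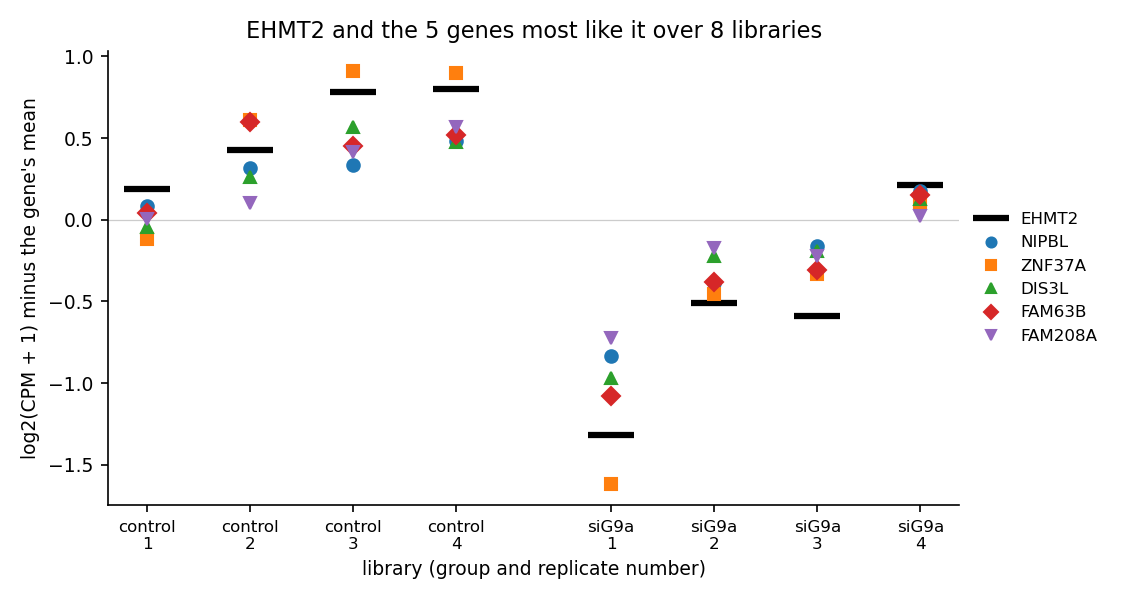
Log2(CPM + 1) of EHMT2 (black bars) and of the 5 genes with the most similar pattern, each minus its own mean over the 8 libraries. In all 6 genes siG9a replicate 1 is the lowest library and siG9a replicate 4 the highest of its group.

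For the other 5 genes the closest patterns were of other kinds. These closest genes too were chosen on the same libraries, so their changes and calls are a description only. MPHOSPH8 was closest to OGFR (r = 0.938), the opioid growth factor receptor, which rose from 166.8 ± 19.9 to 263.7 ± 55.9 CPM (SD, n = 4) in the paired fit (log2 change 0.64, limma adjusted p = 0.00533; 0.0743 without pair 2), and to C1orf74 (0.936). CDYL was closest to PPP1R18 (0.988) and ZNF677 (0.983), which were low in both replicate 3 libraries like CDYL itself: PPP1R18 measured 9.22 and 14.3 CPM there and 41.3 to 51.6 CPM in the other 6. EHMT1 was closest to PSEN2 (0.967) and STARD13 (0.965), WIZ to COX15 (0.966) and PDP1 (0.868), and ZNF644 to ANKRD40 (0.931) and FGFR1OP2 (0.928). C1orf74 and these 8 genes did not pass in either fit of all 8 libraries. Without replicate 3 the paired fit called PSEN2 (log2 change −0.99 against −0.62 with it, limma adjusted p = 0.00682 against 0.0750) and STARD13 (−1.14 against −0.74, 0.0297 against 0.137) lower.

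The genes that act with the 6 were grouped in 7 lists, holding 70 different genes at a mean of 1 CPM or more. The unpaired fit called 0 of the 70, as it called 0 of all genes. The paired fit called 10 of the 70, which is 14.3% against 11.4% of all genes, with 4 higher and 6 lower in siG9a. Without replicate 3 it called 6 of the 70 (8.57%, against 7.87% of all genes), all among those 10. The share called was thus near the background, and the members that changed went in both directions. In the same fit 5 of 12 muscle markers were called lower (DES, CDH15, CHRNA1, FGFR4 and TNNT2; 10 of 12 lower, median −0.62), as were 2 of 4 tested fibroblast markers, 1 of 4 epithelial markers (CDH1) and 1 of 6 neural markers (UCHL1). Without replicate 3 the counts called lower were 5 of 12 muscle, 1 of 4 fibroblast, 1 of 4 epithelial and 0 of 6 neural markers, with 1 epithelial marker (KRT19) called higher, and their part in these calls was not tested.

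**Figure D5:**
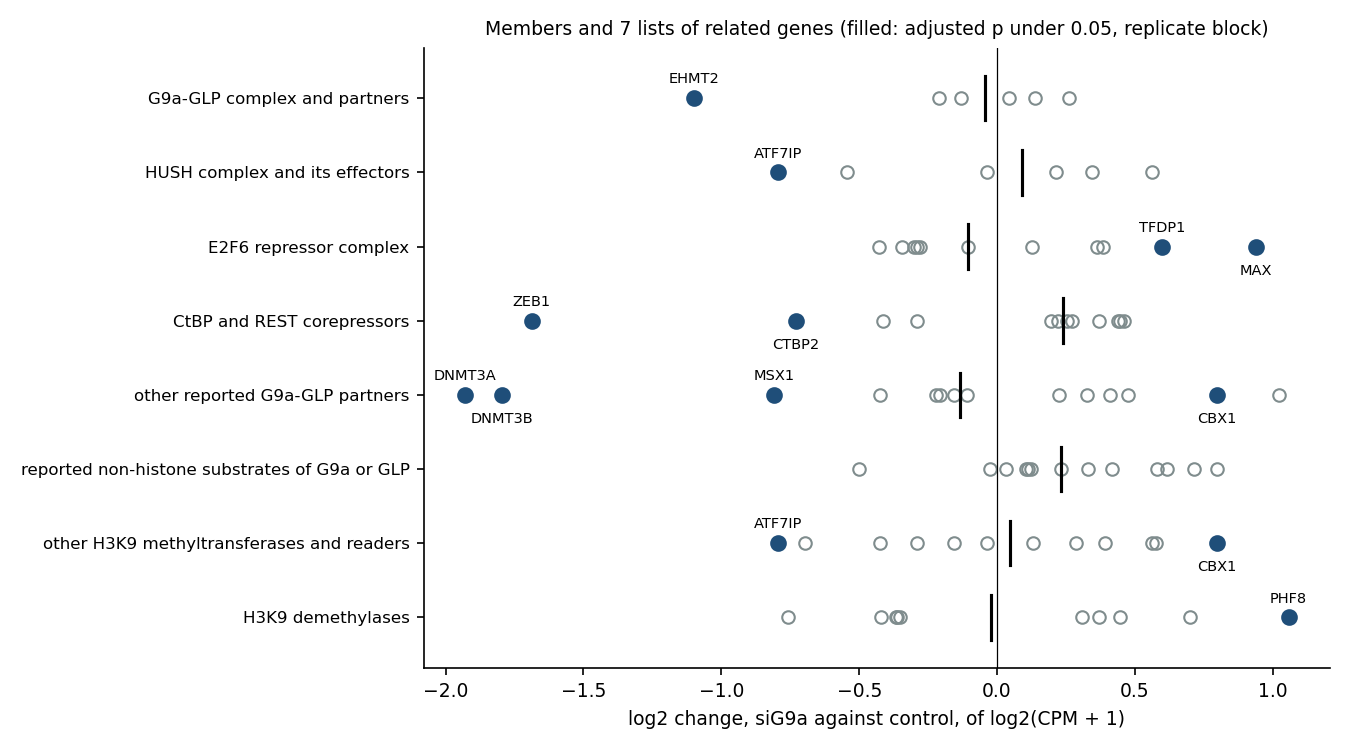
Log2 change of siG9a against control for the 6 genes (top row) and for the tested genes of 7 related lists. Filled points with names had an adjusted p under 0.05 in the paired limma fit, open points did not, and black ticks are list medians. Called genes lie on both sides of 0, and each list median is within 0.24 of 0.

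Of the 6 genes that make up or serve HUSH, apart from MPHOSPH8 itself, 1 was called lower and 0 higher, with a median log2 change of 0.09. Among all genes tested the paired fit called 6.52% lower and 4.86% higher. ATF7IP, which stabilises the methyltransferase SETDB1, measured 28.1, 49.8, 32.0 and 36.4 CPM in control and 10.3, 17.6, 23.4 and 38.4 CPM in siG9a replicates 1 to 4. It was lower in 3 of 4 pairs, replicate 4 being the exception, and its log2 change was −0.79 ± 0.25 (SE; paired limma adjusted p = 0.0398, unpaired 0.398). It passed in 1 of the 4 paired fits that left out a pair, the one without pair 4 (the others gave 0.0606 to 0.308). SETDB1, the H3K9 methyltransferase that HUSH uses, measured 16.4 to 19.7 CPM in control and 24.0 to 29.9 CPM in siG9a. All its siG9a values were above all its control values, as for 3.88% of all genes tested. SETDB1 did not pass (log2 change 0.56, paired limma adjusted p = 0.120). FAM208A measured 28.8 to 43.1 CPM in control and 17.0 to 29.3 CPM in siG9a. It was lower in 4 of 4 pairs, as for 15.3% of all genes tested. FAM208A did not pass (paired limma adjusted p = 0.0994) and was also picked above for its likeness to EHMT2.

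Of 11 genes of the E2F6 complex, a repressor assembly in which G9a and GLP were found, 2 were called higher and 0 lower, with a median of −0.11. The paired fit called 4.86% of all genes higher and 6.52% lower. MAX, the bHLH partner of MYC and MGA, measured 25.4, 30.4, 72.0 and 33.2 CPM in control and 67.6, 65.4, 85.1 and 69.97 CPM in siG9a replicates 1 to 4. Control replicate 3 reached the siG9a range and the other 3 control libraries stayed far below it. Its log2 change was 0.94 ± 0.20 (SE; paired limma adjusted p = 0.00246, unpaired 0.243), and 1.17 without replicate 3. TFDP1, the dimer partner of E2F proteins, rose by 0.60 (paired limma adjusted p = 0.0398), a call lost when any 1 of the 4 pairs was left out (0.0944 to 0.145). CBX3, which encodes the HP1 gamma reader, measured 1613 to 1893 CPM in control and 1212 to 1612 CPM in siG9a and did not pass (log2 change −0.29, paired limma adjusted p = 0.214).

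Of 12 CtBP and REST corepressor genes, 2 were called lower and 0 higher, against a median of 0.24 with 8 of the 12 higher. Over all genes the shares called in the paired fit were 6.52% lower and 4.86% higher. ZEB1, a zinc finger repressor that recruits CtBP, measured 232.4, 240.0, 92.9 and 248.2 CPM in control and 36.1, 61.7, 49.1 and 103.8 CPM in siG9a replicates 1 to 4. Only control replicate 3 came down to the siG9a range. The log2 change of ZEB1 was −1.69 ± 0.20 (SE; paired limma adjusted p = 4.84e-06, unpaired 0.114) and −1.95 without replicate 3. ZEB1 was lower in 4 of 4 pairs, as for 15.3% of all genes tested. CTBP2, a corepressor that binds G9a and WIZ, measured 205.4 to 407.1 CPM in control and 135.9 to 176.1 CPM in siG9a. Its log2 change was −0.73 ± 0.15 (SE, paired limma adjusted p = 0.00246, unpaired 0.244). ZEB2, the paralog of ZEB1, had a log2 change of −0.42 and did not pass (paired limma adjusted p = 0.101). The demethylase KDM1A and the scaffold RCOR1 of the CoREST complex had log2 changes of 0.45 and 0.44 (paired limma adjusted p = 0.147 and 0.152). These 2 were chosen for their place in that complex after their values were seen.

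Of 14 other reported partners of G9a and GLP, 3 were called lower and 1 higher, with a median of −0.13. The matching shares of all genes in the paired fit were 6.52% and 4.86%. The de novo DNA methyltransferase genes DNMT3A and DNMT3B had the largest changes of the list. DNMT3B measured 24.0, 30.4, 31.4 and 36.4 CPM in control replicates 1 to 4 and 5.67, 6.05, 7.42 and 15.5 CPM in siG9a. DNMT3B was highest in replicate 4 of each group, as was EHMT2. Its log2 change was −1.80 ± 0.27 (SE; paired limma adjusted p = 9.16e-05, unpaired 0.0916), and that of DNMT3A was −1.93 ± 0.20 (paired limma adjusted p = 5.19e-07, unpaired 0.109). MSX1, a homeodomain repressor, had a log2 change of −0.81 (paired limma adjusted p = 0.0118), a call lost without pair 2 or pair 3 (0.0730 and 0.112). CBX1, which encodes the HP1 beta reader, was the called rise (0.80, paired limma adjusted p = 0.00150).

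Of 13 genes whose proteins are reported substrates of G9a or GLP, 0 were called in either fit, with a median of 0.23. In the paired limma fit 5 had an unadjusted p under 0.05, as did 3854 of all 15092 genes. Estimates were above 0 for 11 of the 13, where 48.9% of all genes had estimates below 0. Without replicate 3 these counts were 3 and 10 of the 13. Over all 8 libraries the 3 with the smallest p were CEBPB (log2 change 0.62, paired limma adjusted p = 0.0930), HIF1A (−0.50, 0.120) and MEF2D (0.58, 0.156).

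For the neighbouring parts of the H3K9 system the background was again the 11.4% of all genes that the paired fit called. Of 12 tested genes of other H3K9 methyltransferases and readers, 1 was called higher (CBX1) and 1 lower (ATF7IP), both already counted above. Of 10 tested H3K9 demethylases, 1 was called higher and 0 lower. Without replicate 3 the paired fit called 1 of those 12 genes and 0 of these 10, against 7.87% of all genes. PHF8, which removes the dimethyl mark that G9a places, measured 9.35 to 13.4 CPM in control and 19.1 to 30.8 CPM in siG9a. All its siG9a values were above all its control values, as for 3.88% of all genes tested. Its log2 change was 1.06 ± 0.27 (SE; paired limma adjusted p = 0.0122, unpaired 0.178), a call lost without pair 3 or pair 4 (0.0881 and 0.0628). KDM3A and JMJD1C had log2 changes of 0.70 and −0.42 and did not pass (paired limma adjusted p = 0.0828 and 0.0797). Of 6 genes listed as neighbours or antisense partners of the 6 loci and found in the table, 1 was at a mean of 1 CPM or more (STK19) and was not called.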

How the data were processed

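RNA was extracted with TRIzol and QuantSeq 3′ mRNA libraries were read as single 75-base ends, per the labels' protocols. The submitters' processing notes name FastQC 0.11.8, Trim Galore, STAR 2.5.0a, HTSeq 0.8.0, edgeR 3.28 and the builds GRCh38 and hg19, with no roles, so no coordinates are printed. The authors deposited CPM to 2 decimals. All non-zero values (100%, within 0.0051 CPM) were whole multiples of 1 read, so reads were recovered. Depth limits precision: EHMT2 rested on 38 to 170 reads a library, and Wilson intervals (95%) and floors (3 reads) cover counting error only.

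Genes at a mean of 1 CPM or more were tested with limma 3.58.1 (R 4.3.3) on log2(CPM + 1), eBayes with trend, two-sided, Benjamini-Hochberg over all 15092 genes, threshold 0.05. The pseudocount makes fold changes understate those of low genes. The replicate numbers come from the sample titles, which do not say what they mark. The numbers pair the samples by the rule that each same-numbered correlation of deviations exceeds 0.1. Differences between genes were tested by exact permutation. Alternatives were other pseudocounts (0.1, 5), filters, scalings and weights, edgeR 4.0.16 and DESeq2 1.42.0 on the recovered reads, and leaving out libraries or pairs. The fits were tested on simulated reads. These were drawn from the mean of each replicate number, so pairing was built in. They cannot show whether the numbers pair the real samples. GENCODE release 29, which held 86.9% of the identifiers, gave chromosomes and overlaps.

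Named genes were the 6 members, in each list the 3 genes with the smallest paired p plus up to 5 called, and the 5 (EHMT2) or 2 (others) genes with the highest correlation. The members and lists were chosen with earlier results of these data known.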

Additional observations from a re-analysis of the deposited data

Results flagged for a closer look

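Dixon's ratio at its 95% critical value was used to look for a control or siG9a library far from the other 3 of its group, for the 6 genes, their summed CPM, the EHMT2 share and the other named genes. It marked 7 of 84 groups. Chance alone would mark about 1 in 20 (4.2 here), and the genes are not independent. Among those marked, PPP1R18 and ANKRD40 were chosen for likeness to CDYL and ZNF644 over these same libraries. In 5 of the 7 the marked library was control replicate 3.

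EHMT1 was low in control replicate 3 at 27.1 CPM, below a range of 37.7 to 39.5 CPM in the other 3. In that library ZEB1 was low at 92.9 CPM (others 232.4 to 248.2), DNMT3A at 52.3 CPM (others 158.0 to 179.7) and PPP1R18 at 9.22 CPM (others 41.8 to 48.0), while MAX was high at 72.0 CPM (others 25.4 to 33.2). Among the control libraries the same one had the lowest summed muscle markers and the highest summed neural markers, and their part in these values was not tested.

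ZNF644 was high in control replicate 4 at 85.7 CPM, above a range of 52.3 to 56.5 CPM in the other 3. ANKRD40 was high in that library too at 27.5 CPM (others 7.54 to 10.5). It was chosen for its likeness to ZNF644 over these libraries, so this is not a separate observation.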

How the results depend on the processing

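EHMT2 stayed lower in siG9a in all 27 alternatives, from −1.35 to −0.84 in log2, and passed in the 7 with a replicate block: −1.10 in limma, −1.09 in edgeR, −1.12 in DESeq2, and −1.27 to −0.96 without 1 pair (−1.01 without pair 3). EHMT1 stayed lower and ZNF644 and MPHOSPH8 higher in all 27, and the 5 partners passed in none. WIZ ran from −0.26 to 0.070 without 1 library, the highest without control replicate 3, and turned to 0.11 without replicate 3 in both groups, with or without the block. CDYL ran from −0.19 to 0.23 without 1 library (negative without control replicate 3 or siG9a replicates 2 or 4). It turned to −0.0057 with array weights and to −0.012 without replicate 3 in both groups, with or without the block.

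The count of genes called was 0 in the unpaired limma and edgeR fits, with 1880 and 1847 genes at an unadjusted p under 0.05. It was 18 with no filter, 436 with array weights, 291 with DESeq2, 0 to 300 without 1 library (300 without control replicate 3, 2 without siG9a replicate 4) and 415 without replicate 3 in both groups. With the replicate block it was 1717 (limma), 1711 (edgeR) and 969 (DESeq2), and 972, 653, 1180 and 1392 without pairs 1 to 4. Of the 6 genes, 1 was called in each fit with the block and 0 otherwise.

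Without 1 library, EHMT2 against ZNF644 ran from −1.40 to −0.90, EHMT2 against CDYL from −1.32 to −0.83 and EHMT2 against MPHOSPH8 from −1.61 to −1.16. Each lost its call without any 1 control library and without siG9a replicate 1 or 2. EHMT2 against EHMT1 ran from −1.12 to −0.60 and EHMT2 against WIZ from −1.21 to −0.61, and both passed without siG9a replicate 4 (exact permutation, adjusted p = 0.0286).

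Of the other named genes, 5 that passed in no fit above changed sign. STK19 turned to 0.21 with pseudocount 0.1, 0.26 with array weights, 0.26 without replicate 3 in both groups (with or without the block) and 0.12 with the block without pair 4, and ran from −0.52 to 0.022 without 1 library. COX15 (0.014) and PPP1R18 (−0.015) turned without replicate 3 in both groups, with or without the block, PPP1R18 also with array weights (−0.053), and the FGFR1OP2 log2 change with the block without pair 1 (−0.014). Without 1 library COX15 ran from −0.23 to 0.019, FGFR1OP2 from −0.011 to 0.25, PPP1R18 from −0.41 to 0.53 and ZNF677 from −0.20 to 0.61.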
